A study of Rattus norvegicus with 14 samples.

Results

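Iron uptake, storage and heme synthesis genes were followed in rat liver across 3 diets that differed in magnesium. The 8 genes were Tfrc and Slc11a2 (iron uptake), Fth1 and Ftl1 (the ferritin chains that store iron), Aco1 and Ireb2 (the RNA-binding iron regulatory proteins), and Alas1 and Alas2 (the first enzyme of heme synthesis). Members were all probe sets whose only platform gene symbol was one of these names, which gave 9 of the array's 8799 probe sets and 6 of the 8 genes. Another 3 probe sets list Fth1 or Ftl1 together with other genes, so they were described by their probe set name and not counted as Fth1 or Ftl1. RNA came from the left lateral lobe, and the 14 arrays comprised 5 from rats on a diet labelled MG++ supplemented, 5 on a standard diet and 4 on a diet labelled Mg++ deficient. The labels give no strain, sex, age, magnesium content or duration of feeding. They do not state whether the arrays come from different animals. The p-values therefore reflect only how far these samples spread, which may be technical.

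Cells take up iron bound to transferrin through the transferrin receptor (Tfrc), and the divalent metal transporter Slc11a2 then carries it out of the endosome into the cytosol. Iron that is not used is held in shells of ferritin heavy and light chains, and the liver is a main iron store of the body. When iron is scarce, Aco1 (IRP1) and Ireb2 (IRP2) bind hairpins called iron-responsive elements, which stabilises the Tfrc mRNA and blocks translation of the ferritin and Alas2 mRNAs. Alas1 starts heme synthesis in the liver and other tissues and is repressed by heme, whereas Alas2 is the isoform of red cell precursors. Control of ferritin at translation does not have to appear in mRNA levels, which are all that an array measures.

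The 16 hepatocyte markers looked for, among them Alb, Ttr and Cps1, were all above the filter on dim probe sets. Median signals of the arrays ran from 18 to 34.4 units, and signals were quantile normalised before use. Supplemented array 5 stood apart in its rank correlation with the other arrays, at 0.913 against 0.940 to 0.951 for the rest. The log2 ratio of the Gapdh control probe sets at the 3' and 5' ends, which rises with RNA degradation, ran from -0.12 to 1.12 on the supplemented, 1.04 to 2.65 on the standard and 1.12 to 2.68 on the deficient diet. Supplemented arrays thus carried lower Gapdh ratios than most others, with supplemented array 5 lowest. The same log2 ratio of beta-actin ran from 0.77 to 1.29, 0.77 to 2.63 and 0.85 to 2.85 in the same order of diets. By that ratio supplemented array 5 was the highest of the supplemented arrays. The part of these ratios in any difference below was not tested beyond the covariate values given.

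No member probe set differed between diets by limma's test. Of the 9 probe sets, 7 from 5 genes passed the filter on dim probe sets (a mean above 14.3 units over the 14 arrays). Tfrc and 1 of the 3 Slc11a2 probe sets lay under it, and their values come from a fit of all 8740 probe sets with no filter. Between the deficient and standard diets 0 of 7 had an adjusted p under 0.05, where the same call covered 0% of all 5133 probe sets tested. Between the supplemented and standard diets it was again 0 of 7 (0% of all), and between deficient and supplemented 0 of 7 (0.0195% of all). At an unadjusted limma p under 0.05 the members numbered 0 of 7 in each comparison, against 3.04%, 8.88% and 13% of all probe sets in the same order. Those shares were 156, 456 and 669 of the 5133 probe sets. With the Gapdh ratio as a covariate the counts were 141, 132 and 113, and with the beta-actin ratio 167, 245 and 244. The cause of these changes was not tested. The moderated F-test over the 3 diets called 0 of 7, against 0.0195% of all, and at an unadjusted p 0 of 7 against 9% of all. Arrays of 2 diets overlapped for each of the 7, where 1.44%, 1.81% and 4.95% of all probe sets did not.

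The median log2 difference over the 7 probe sets was 0.13 for deficient minus standard, with 5 of 7 higher and 2 lower (50.1% and 49.9% of all probe sets), where the median of all probe sets was 0.00059. It was 0.030 for supplemented minus standard, with 4 of 7 higher and 3 lower (47.8% and 52.2% of all, whose median was -0.016), and 0.024 for deficient minus supplemented, with 5 of 7 higher and 2 lower (52.4% and 47.6% of all, whose median was 0.023). Each pair of comparisons shares the arrays of 1 diet. The 95% intervals of the 7 tested member probe sets all included 0, and a difference of any size inside an interval is compatible with these data. The narrowest interval, of Slc11a2 on its brightest probe set for supplemented minus standard, ran from -0.50 to 0.27 on the log2 scale.

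**Figure D1:**
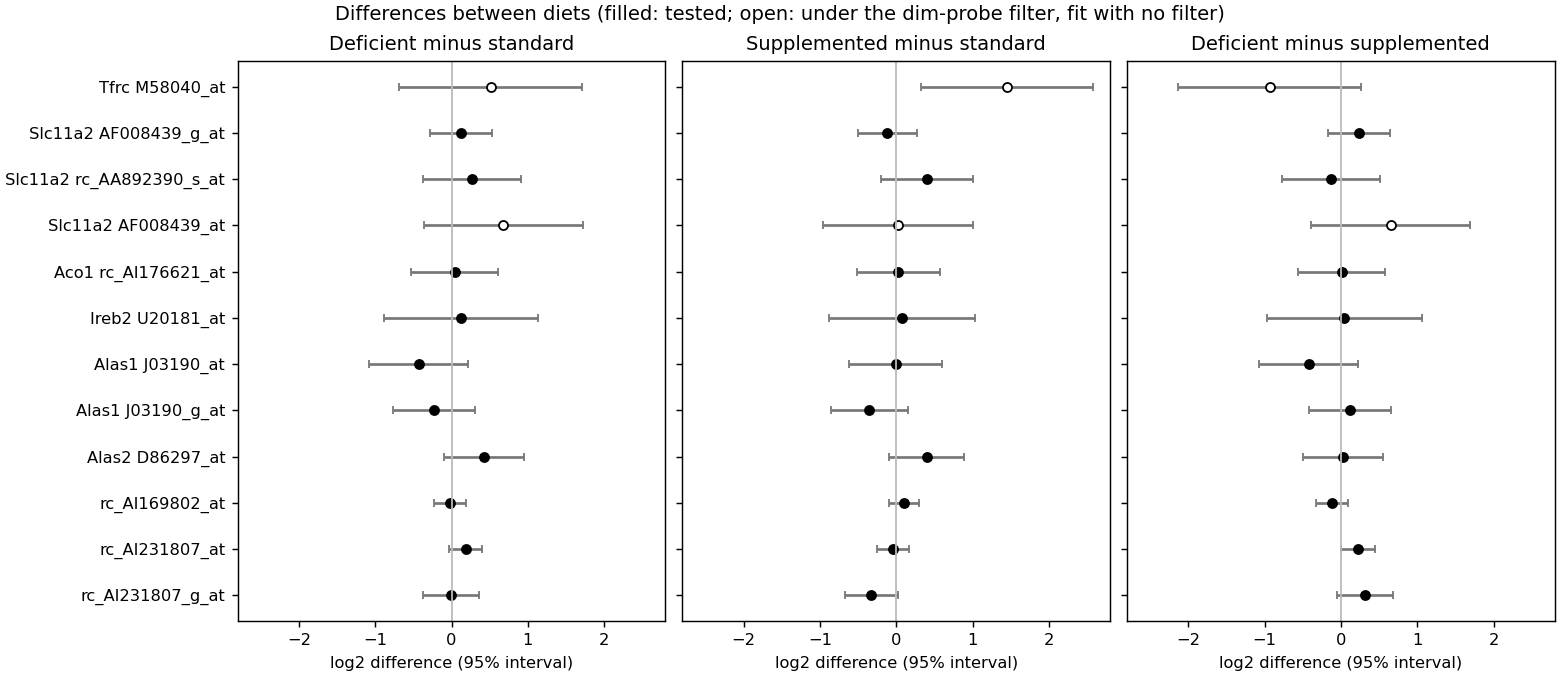
Log2 difference between diets (x axis, with its 95% interval from limma) of the 9 member probe sets and the 3 probe sets that list a ferritin gene among others (y axis), in a panel for each comparison. Filled points were tested and open points lay under the filter on dim probe sets; among members the interval lies wholly on one side of 0 only for Tfrc, supplemented minus standard, from 0.32 to 2.58.

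Tfrc, the transferrin receptor, showed the widest difference of all members, although its single probe set was dim. Its normalised signal on the supplemented arrays 1 to 5 was 22.6, 22.2, 32.5, 26.3 and 15 units. On the standard arrays 6 to 10 it was 10.0, 21.2, 3.29, 9.76 and 5.23 units, with array 8 under the floor of 3.93 units. The 4 supplemented arrays other than array 5 lay above each standard array, while array 5 lay under standard array 7. On the deficient arrays 11 to 14 it was 6.39, 6.54, 16.5 and 30.4 units, a wide spread that overlapped both other diets. On the log2 scale supplemented samples averaged 4.52 ± 0.41 (SD, n = 5), standard samples 3.08 ± 0.95 (SD, n = 5) and deficient samples 3.59 ± 1.10 (SD, n = 4).

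Supplemented minus standard, Tfrc differed by 1.45 ± 0.52 (SE) on the log2 scale, or 2.73-fold. Its 95% interval, which is not adjusted for the number of probe sets, ran from 0.32 to 2.58. The difference did not pass after adjustment over 8740 probe sets (limma adjusted p = 0.629). Tfrc had an unadjusted limma p of 0.0163, and 645 of the 8740 probe sets in the fit with no filter had one under 0.05. Deficient minus supplemented it differed by -0.93 ± 0.55 (SE), with an interval from -2.13 to 0.26 (limma adjusted p = 0.575), and deficient minus standard by 0.51 ± 0.55 (SE; limma adjusted p = 1). The order of the 3 diets was therefore supplemented, deficient, standard, in which neither neighbouring pair differed beyond its spread. With the Gapdh ratio as a covariate the supplemented minus standard difference was 1.18 ± 0.67 (SE), and with the beta-actin ratio 1.10 ± 0.53. Leaving out 1 array at a time gave 1.17 (standard array 8 absent) at the least and 1.78 (standard array 7 absent) at the most. Without deficient array 14, the deficient minus standard difference was 0.067 and deficient minus supplemented was -1.38. The latter was -0.63 without deficient array 11, -0.61 with the Gapdh covariate and -0.38 with the beta-actin covariate. Macrophages also carry this receptor, and the summed signal of the 10 Kupffer cell and macrophage markers above the filter (of 12 on the array) ran from 1597 to 2327 units on the supplemented, 1424 to 1817 on the standard and 1461 to 1838 on the deficient arrays. The 3 ranges overlapped, with supplemented array 5 at the low end of the supplemented range. In supplemented against standard samples 9 of the 10 markers were higher (median 0.27), where 47.8% of all probe sets were higher. Limma called 0 of the 10 markers, and 1 had an unadjusted p under 0.05, as 8.88% of all probe sets had. The part of macrophages in the Tfrc signal was not tested. In bulk liver RNA, more cells of a type and more RNA per cell cannot be told apart.

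The Tfrc promoter is shown because this gene had the widest difference. The run is the 250 bases before the RefSeq start on GRCr8, at chr11:81690319-81690568 on the minus strand. Capitals mark 1 match to ACGTG, the core of the hypoxia response element, starting 31 bases before the start, and 1 match to TGACGT, part of the cAMP response element, starting 16 bases before it.
Tfrc: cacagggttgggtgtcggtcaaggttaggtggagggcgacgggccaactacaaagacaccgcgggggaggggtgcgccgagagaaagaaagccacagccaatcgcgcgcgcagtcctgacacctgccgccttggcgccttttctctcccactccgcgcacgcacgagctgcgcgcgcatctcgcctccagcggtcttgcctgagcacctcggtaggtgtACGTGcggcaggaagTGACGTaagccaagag
Both strands were searched and the 2 matches do not overlap. Of 33469 annotated rat starts, 16.6% held ACGTG and 6.9% held TGACGT in a window of this length. A match describes letters only and is not evidence of binding.

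Slc11a2, the divalent metal transporter, was measured by 3 probe sets, which did not follow each other closely. On the brightest (AF008439_g_at) the supplemented arrays 1 to 5 gave 133, 110, 114, 169 and 122 units and the standard arrays 6 to 10 gave 115, 124, 131, 162 and 167 units. The deficient arrays 11 to 14 gave 164, 170, 165 and 114 units. Deficient arrays 11, 12 and 13 thus sat near the top of the range and array 14 near the bottom, and all diets overlapped. The log2 means were 7.00 ± 0.25 (SD, n = 5), 7.11 ± 0.24 (SD, n = 5) and 7.24 ± 0.27 (SD, n = 4) for supplemented, standard and deficient. Deficient minus supplemented, the ends of that order, differed by 0.24 ± 0.19 (SE; limma adjusted p = 0.587), by 0.38 without deficient array 14 and by 0.010 with the Gapdh ratio as a covariate.

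The other 2 Slc11a2 probe sets gave other orders of the diets. On rc_AA892390_s_at the signal ran from 29.7 to 52.9 units on the supplemented, 13.7 to 45.3 on the standard and 30.8 to 41.1 on the deficient arrays. The supplemented mean was highest there, 0.41 ± 0.28 (SE) above standard on the log2 scale (limma adjusted p = 0.680), and 0.15 above it without standard array 6. The brightest probe set had the opposite sign in that comparison, at -0.11 ± 0.18 (SE). The third, AF008439_at, lay under the filter, with 2 of 5 supplemented and 1 of 5 standard arrays at the floor, and its deficient minus standard difference was 0.68 ± 0.48 (SE; limma adjusted p = 1). Over the 14 arrays the pairs of Slc11a2 probe sets had Pearson's r between 0.39 and 0.58.

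The ferritin genes could be followed only through probe sets whose annotation names several genes. On rc_AI169802_at, annotated to Fth1 and the pseudogene Fth1-ps5, the signal ran from 2422 to 2776 units on the supplemented, 2111 to 2590 on the standard and 2123 to 2614 on the deficient arrays. The 3 diets overlapped, and log2 means were 11.30 ± 0.08 (SD, n = 5), 11.20 ± 0.13 (SD, n = 5) and 11.18 ± 0.12 (SD, n = 4). The differences between diets were at most 0.12 in size, with SE of 0.094 to 0.10 (limma adjusted p from 0.615 to 0.999). These were among the tightest intervals measured here: deficient minus standard lay between -0.23 and 0.20 on the log2 scale.

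A pair of probe sets, rc_AI231807_at and rc_AI231807_g_at, list Ftl1 with Ftl1-like genes, a pseudogene and Ripor2. On the first, the deficient arrays 11 to 14 gave 4657, 4686, 4686 and 4493 units. The supplemented arrays 1 to 5 gave 3795, 4018, 4569, 4018 and 3468 units and the standard arrays 6 to 10 gave 3701, 3518, 4108, 4767 and 4406 units. Deficient arrays lay close together near the top of the range and overlapped both other diets. Deficient minus supplemented was 0.23 ± 0.10 (SE), or 1.17-fold, with an interval from 0.0069 to 0.45. It did not pass adjustment (limma adjusted p = 0.373), in a comparison where 13% of all probe sets had an unadjusted p under 0.05. On rc_AI231807_g_at the same difference was 0.32 ± 0.17 (SE; limma adjusted p = 0.435), and supplemented minus standard was -0.32 ± 0.16 (limma adjusted p = 0.561). Between deficient and standard the first gave 0.18 ± 0.10 and the second -0.0054 ± 0.17; the difference between the 2 probe sets was not tested.

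**Figure D2:**
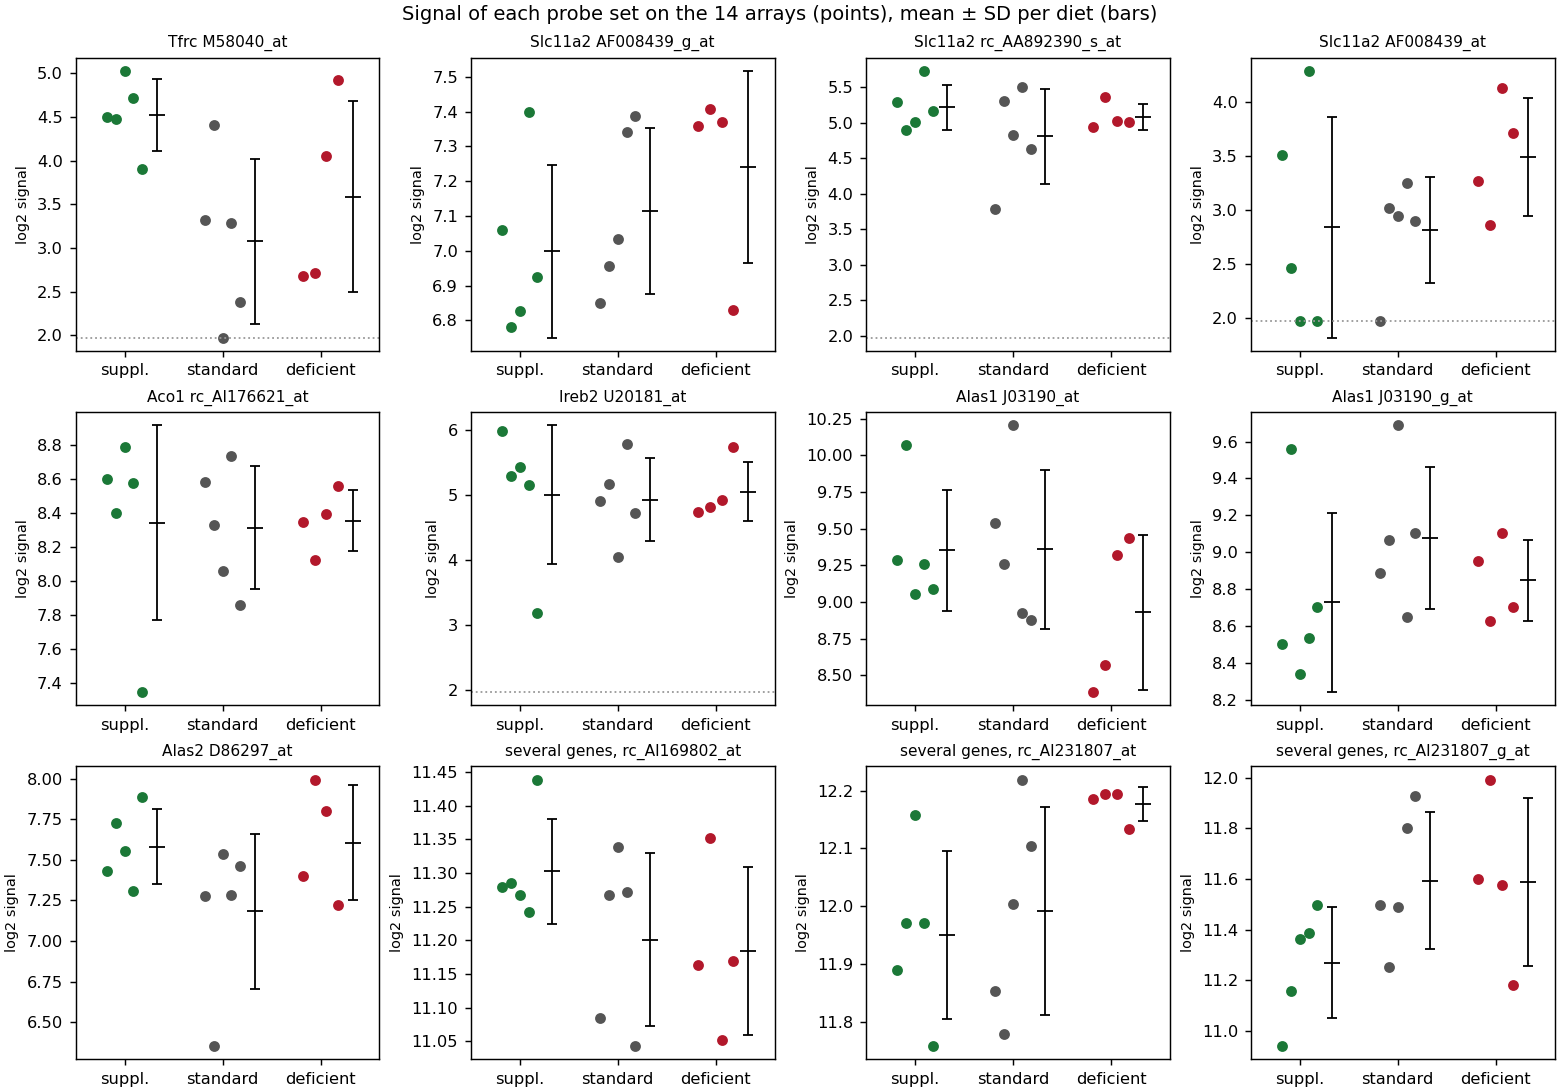
Log2 normalised signal (y axis, its own range in each panel) of the 9 member probe sets and the 3 several-gene ferritin probe sets on each array (points, in array order within a diet: 5 supplemented, 5 standard, 4 deficient), with the mean and SD of each diet as bars; a dotted line, where drawn, is the floor at 1.97. Diets overlap in each panel; the supplemented Tfrc arrays sit between 15 and 32.5 units, and the single low supplemented array of Aco1 and Ireb2 is array 5.

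Aco1 and Ireb2, the 2 iron regulatory proteins, had nearly level means in the 3 diets. Aco1, which is also the cytosolic aconitase when it carries an iron-sulfur cluster, gave 388, 337, 442, 381 and 163 units on supplemented arrays 1 to 5. It gave 383, 322, 267, 426 and 232 units on standard arrays 6 to 10 and 326, 279, 336 and 377 units on deficient arrays 11 to 14. Supplemented array 5 was the lowest of all arrays and the diets overlapped throughout. Log2 means were 8.34 ± 0.57 (SD, n = 5) in supplemented, 8.31 ± 0.36 (SD, n = 5) in standard and 8.36 ± 0.18 (SD, n = 4) in deficient samples. The largest of the 3 differences, deficient minus standard, was 0.043 ± 0.27 (SE) (limma adjusted p from 0.984 to 0.999). Their signs were not settled: with 1 array left out deficient minus supplemented ran from -0.24 (without supplemented array 5) to 0.12 (without supplemented array 3).

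Ireb2, whose protein is broken down when iron is plentiful, gave 63.3, 39.2, 43.1, 35.5 and 9.13 units on supplemented arrays 1 to 5. It gave 30.2, 36.0, 16.5, 55.4 and 26.5 units on standard arrays 6 to 10 and 26.7, 28.3, 30.5 and 53.3 units on deficient arrays 11 to 14. Array 5 was again the lowest, and the other 4 supplemented arrays lay within the standard and deficient range except array 1, the highest. The 3 differences between diets were 0.13, 0.079 and 0.047 on the log2 scale with SE of 0.45 to 0.47 (limma adjusted p from 0.973 to 0.999). Without supplemented array 5 supplemented minus standard was 0.54 (limma adjusted p = 0.598), and deficient minus supplemented was -0.41.

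Aco1 and Ireb2 varied together across arrays rather than across diets. Pearson's r over the 14 arrays was 0.87 and Spearman's rho was 0.83. Leaving out both arrays most distant from the Aco1 median, supplemented array 5 and standard array 10, gave r = 0.77, and deviations from the diet means gave r = 0.87. Of 4221 other named probe sets, 12, or 0.284%, followed Aco1 at least as closely. All values of a pair share the array and its RNA quality, so this describes these arrays only. It was the highest r among the 36 pairs formed by the 6 measured genes (each by its brightest probe set) and the 3 ferritin probe sets.

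Their promoters are shown because the 2 transcripts varied together. Each run is the 250 bases before the RefSeq start on GRCr8, at chr5:60055645-60055894 for Aco1 and chr8:64160838-64161087 for Ireb2, both on the plus strand. Capitals mark GGGCGG on either strand, the GC box bound by Sp1-family factors.
Aco1: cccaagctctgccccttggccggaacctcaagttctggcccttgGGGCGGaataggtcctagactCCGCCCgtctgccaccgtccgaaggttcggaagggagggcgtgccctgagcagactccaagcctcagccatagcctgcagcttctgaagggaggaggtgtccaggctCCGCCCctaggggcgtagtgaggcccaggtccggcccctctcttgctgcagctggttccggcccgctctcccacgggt
Ireb2: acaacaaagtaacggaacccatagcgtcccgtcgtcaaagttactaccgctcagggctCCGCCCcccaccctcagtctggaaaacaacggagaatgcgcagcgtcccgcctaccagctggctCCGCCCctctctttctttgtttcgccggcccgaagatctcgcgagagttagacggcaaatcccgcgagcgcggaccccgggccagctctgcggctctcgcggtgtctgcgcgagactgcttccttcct
Aco1 held 3 matches, starting 206, 185 and 78 bases before the start, and Ireb2 held 2, starting 192 and 128 bases before it. The motif was present in 30.5% of the 33469 windows, so sharing it is not unusual. The Tfrc window held none.

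Alas1, the rate-limiting enzyme of heme synthesis in liver, had a wide spread within each diet. On its brighter probe set (J03190_at) supplemented arrays 1 to 5 gave 624, 1073, 532, 613 and 545 units and standard arrays 6 to 10 gave 744, 613, 1179, 486 and 470 units. Deficient arrays 11 to 14 gave 335, 380, 638 and 694 units. The 2 lowest signals were deficient arrays 11 and 12, while supplemented array 2 and standard array 8 were far above the rest. The log2 mean was 8.93 ± 0.53 (SD, n = 4) in deficient, 9.36 ± 0.54 (SD, n = 5) in standard and 9.35 ± 0.41 (SD, n = 5) in supplemented samples. Deficient minus standard was -0.43 ± 0.30 (SE; limma adjusted p = 0.999), with an interval from -1.08 to 0.22. Without standard array 8 it was -0.22. Deficient minus supplemented was -0.42 ± 0.30 (limma adjusted p = 0.553) and -0.24 without deficient array 11.

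The other Alas1 probe set (J03190_g_at) placed the standard diet highest, with 401 to 825 units against 324 to 756 on the supplemented and 396 to 550 on the deficient arrays. Its deficient minus supplemented difference was 0.12 ± 0.25 (SE), opposite in sign to that of the brighter probe set, and neither passed. Standard array 8 and supplemented array 2 were the highest arrays on both probe sets. Pearson's r between them over the 14 arrays was 0.60 and Spearman's rho 0.40.

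Alas2, the isoform of red cell precursors, had its lowest mean on the standard diet. Supplemented arrays 1 to 5 gave 172, 211, 188, 159 and 236 units and standard arrays 6 to 10 gave 155, 81.9, 186, 156 and 176 units. Deficient arrays 11 to 14 gave 169, 255, 223 and 149 units. Standard array 7 was far below all others, and the diets overlapped. The log2 mean was 7.58 ± 0.23 (SD, n = 5) in supplemented, 7.18 ± 0.48 (SD, n = 5) in standard and 7.60 ± 0.35 (SD, n = 4) in deficient samples. Deficient minus standard was 0.42 ± 0.24 (SE; limma adjusted p = 0.999) and supplemented minus standard was 0.40 ± 0.23 (limma adjusted p = 0.632). Both comparisons rest on the same standard arrays: without standard array 7 they were 0.22 and 0.19. Deficient minus supplemented was 0.024 ± 0.24.

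Across arrays Alas2 varied with the globin transcripts Hbb-b1, Hbb and Hba-a3, and less with the globin transcript Hbe1. Red cells and their precursors carry globin transcripts. Over the 14 arrays Pearson's r of Alas2 was 0.76 with Hbb-b1, 0.68 with Hbb and 0.63 with Hba-a3, and Spearman's rho was 0.85, 0.68 and 0.85. Deviations from the diet means gave r = 0.79, 0.59 and 0.55. Leaving out both arrays most distant from the Alas2 median, standard array 7 and deficient array 12, gave 0.76, 0.65 and 0.81. In the same order 0.0711%, 0.308% and 0.521% of 4221 other probe sets had as high an r with Alas2. The other 5 red cell genes above the filter, Slc4a1, Rhd, Epb41, Car2 and Hbe1, had r between 0.10 and 0.37. Of these, Hbe1 is also a globin gene, with r = 0.29 over the 14 arrays. That r was 0.50 for deviations from the diet means and -0.23 without standard array 7 and deficient array 12. Globin probe sets can detect near-identical gene copies, so which globin gene each reports is uncertain. Summed over the 8 red cell genes above the filter (of 12 on the array) the signal ran from 3550 to 6426 units on the supplemented, 3791 to 4791 on the standard and 4129 to 7004 on the deficient arrays. Hbb and Hbb-b1, at means of 2786 and 1756 units, dominate this sum, since the other genes had means from 21.9 to 91.8 units. With each gene weighted alike, the mean log2 deviation from the 14-array means ran from -0.25 to 0.20 on the supplemented arrays. It ran from -0.29 to 0.098 on the standard and -0.38 to 0.39 on the deficient arrays. Epor, Gata1, Rhag and Hbg1 lay under the filter. Between the deficient and standard diets 5 of these 8 genes were higher and 3 lower (median 0.17), against 50.1% and 49.9% of all probe sets. Limma called 0 of 8 (0% of all), with 0 at an unadjusted p under 0.05, against 3.04% of all. Hba-a3 was at 0.55 ± 0.41 (SE), Hbb at 0.30 ± 0.18 and Hbb-b1 at 0.20 ± 0.22. On the lower side Slc4a1, the red cell anion exchanger, was at -0.26 ± 0.24, Hbe1 at -0.094 and Rhd at -0.058.

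**Figure D3:**
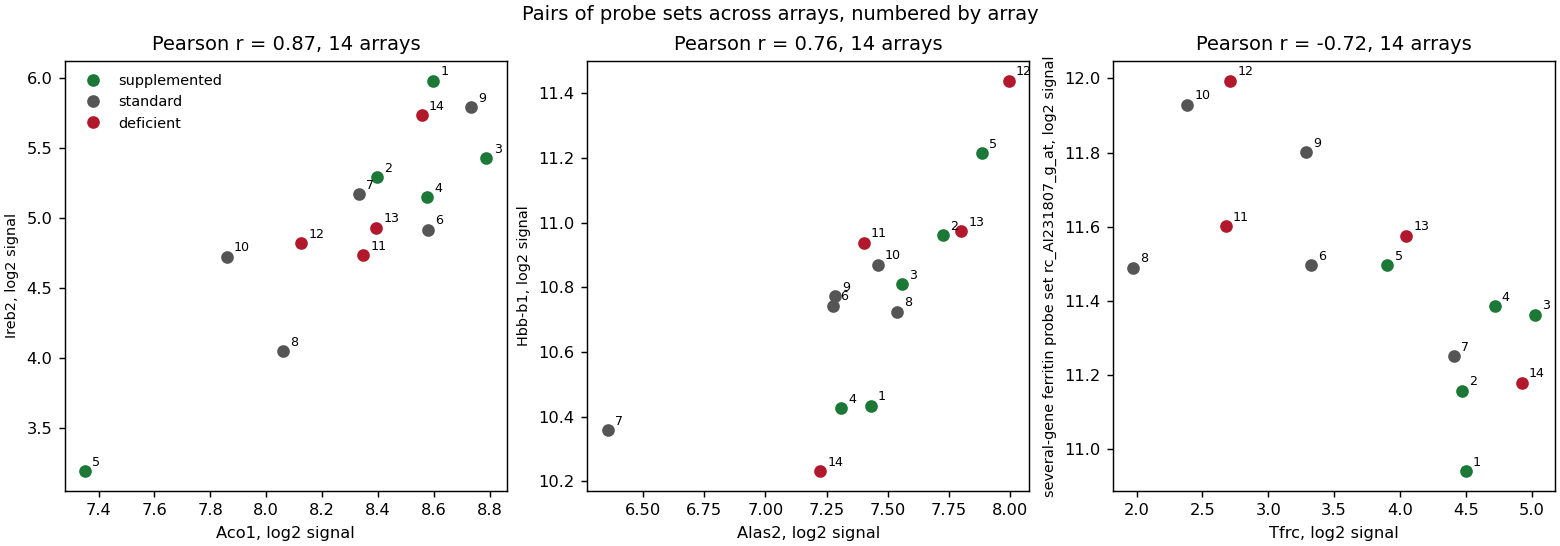
Log2 signals of 3 pairs of probe sets across the 14 arrays (points numbered by array and coloured by diet): Aco1 (x) against Ireb2 (y), Alas2 against Hbb-b1, and Tfrc against the several-gene ferritin probe set rc_AI231807_g_at. Pearson's r is 0.87, 0.76 and -0.72; the pairs were chosen after their values were seen, and supplemented array 5 lies lowest for both Aco1 and Ireb2.

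Among the other pairs, Tfrc and the several-gene probe set rc_AI231807_g_at ran in opposite directions, with r = -0.72 and rho = -0.73 over the 14 arrays. Deviations from the diet means gave -0.60, without standard arrays 8 and 10 r was -0.78, and 1.37% of 4223 other probe sets had as low an r with Tfrc. With the companion probe set rc_AI231807_at the r of Tfrc was -0.23, and no other pair with Tfrc had an r beyond 0.48 in size. Other measures were larger for some of these pairs: rho of Tfrc was 0.69 with Ireb2 and 0.60 with Aco1. With Alas2 its r was -0.23 over the 14 arrays and -0.72 for deviations from the diet means. Slc11a2 followed rc_AI231807_g_at with r = 0.67, and Alas1 ran against Slc11a2 with r = -0.59. The 2 isoforms Alas1 and Alas2 had r = -0.056.

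The genes most like each member over the 14 arrays were taken from all named probe sets tested. For Aco1 they were Gnas, a G protein subunit gene (r = 0.94), the angiotensin receptor gene Agtr1b (0.93) and the peroxisomal aminotransferase gene Agxt (0.93), which became 0.79, 0.78 and 0.75 without the 2 arrays farthest from the Aco1 median. For Ireb2 they were Sorbs2, the signalling gene Smad2 and the protease gene Adam17 (r = 0.93, 0.93 and 0.92), with 0.91, 0.77 and 0.84 once supplemented array 5 and standard array 8 were left out. For Slc11a2 they were the glutamate receptor gene Grin2c, the proton pump gene Atp6v0c and the lysosomal gene Psap (0.89, 0.86 and 0.85), with 0.87, 0.86 and 0.82 once supplemented array 4 and deficient array 12 were left out. For Alas1 they were Cgrrf1, the nuclear receptor gene Nr0b2 and Smad3 (0.78, 0.76 and 0.76), and without standard array 8 and deficient array 11 these values were 0.49, 0.46 and 0.50. For Alas2 they were the mitochondrial aminotransferase gene Agxt2, the protease gene Pcsk7 and Syt5 (0.83, 0.78 and 0.77), with 0.56, 0.49 and 0.75 once standard array 7 and deficient array 12 were left out. Such values are the highest of about 4222 and are given as descriptions.

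Other genes of the same pathways were read from fixed lists, and none was called by limma in any comparison. Of 24 further genes of iron transport, storage and regulation 7 were on the array, and all 7 were tested. Against the standard diet, 4 of 7 were higher and 3 lower on the deficient diet (median 0.0043 on the log2 scale) and 5 of 7 were higher on the supplemented diet (median 0.15). Between deficient and supplemented, 7 of 7 were lower on the deficient diet (median -0.22), where 47.6% of all probe sets were lower. Limma called 0 of 7 (0.0195% of all), and 0 had an unadjusted p under 0.05, against 13% of all. Of the Kupffer cell and macrophage markers 8 of 10 were lower in the same comparison (median -0.26). Limma called 0 of these 10, and 2 had an unadjusted p under 0.05, as 13% of all probe sets had. For 1, Clec4f, all deficient arrays lay below all supplemented arrays, where 4.95% of all probe sets did not overlap in either direction. Slc40a1, the iron exporter ferroportin, was at -0.45 ± 0.25 (SE; limma adjusted p = 0.439) in that comparison and Cp, the ferroxidase ceruloplasmin, at -0.12 ± 0.12. Ncoa4, the ferritin-degradation receptor, was at -0.22 ± 0.23 and Cybrd1, a ferric reductase, at -0.37 ± 0.52.

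Of 13 other heme synthesis genes 4 were on the array and tested, and 4 of 4 were higher in deficient than in supplemented samples (median 0.24), where 52.4% of all probe sets were higher. Ppox, which makes protoporphyrin, was 0.42 ± 0.19 (SE) higher (limma adjusted p = 0.373) and was the 1 gene of these 4 with an unadjusted p under 0.05, as 13% of all probe sets had. The mitochondrial porphyrin transporter Abcb6 was at 0.32 ± 0.23, Urod, which trims uroporphyrinogen, at 0.16 ± 0.18 and Alad, the second enzyme of the pathway, at 0.14 ± 0.20. Against the standard diet 4 of 4 were higher on the deficient diet (median 0.17) and 1 of 4 on the supplemented diet (median -0.13). Of 9 genes of heme breakdown and binding 6 were tested. On the deficient diet 3 of 6 were higher than on the standard diet and 2 of 6 were higher on the supplemented diet. Hmox1, the inducible heme oxygenase, was at 0.37 ± 0.24 (SE) and Hmox2, the constitutive one, at -0.52 ± 0.25 for deficient minus standard (limma adjusted p = 0.999 for each). Hpx, the plasma heme carrier hemopexin, was at 0.066 ± 0.067 and Ambp, whose alpha-1-microglobulin product binds heme, at 0.074 ± 0.10. Ambp did not overlap between the deficient and supplemented arrays (0.20 ± 0.10 higher on deficient; limma adjusted p = 0.417), as 3.08% of all probe sets did not in that direction. A list of 5 other mRNAs with an iron-responsive element or encoding mitochondrial aconitase had 2 tested genes, Slc40a1, already counted above, and Cdc42bpa, which was at 0.39 ± 0.32 for deficient minus standard.

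**Figure D4:**
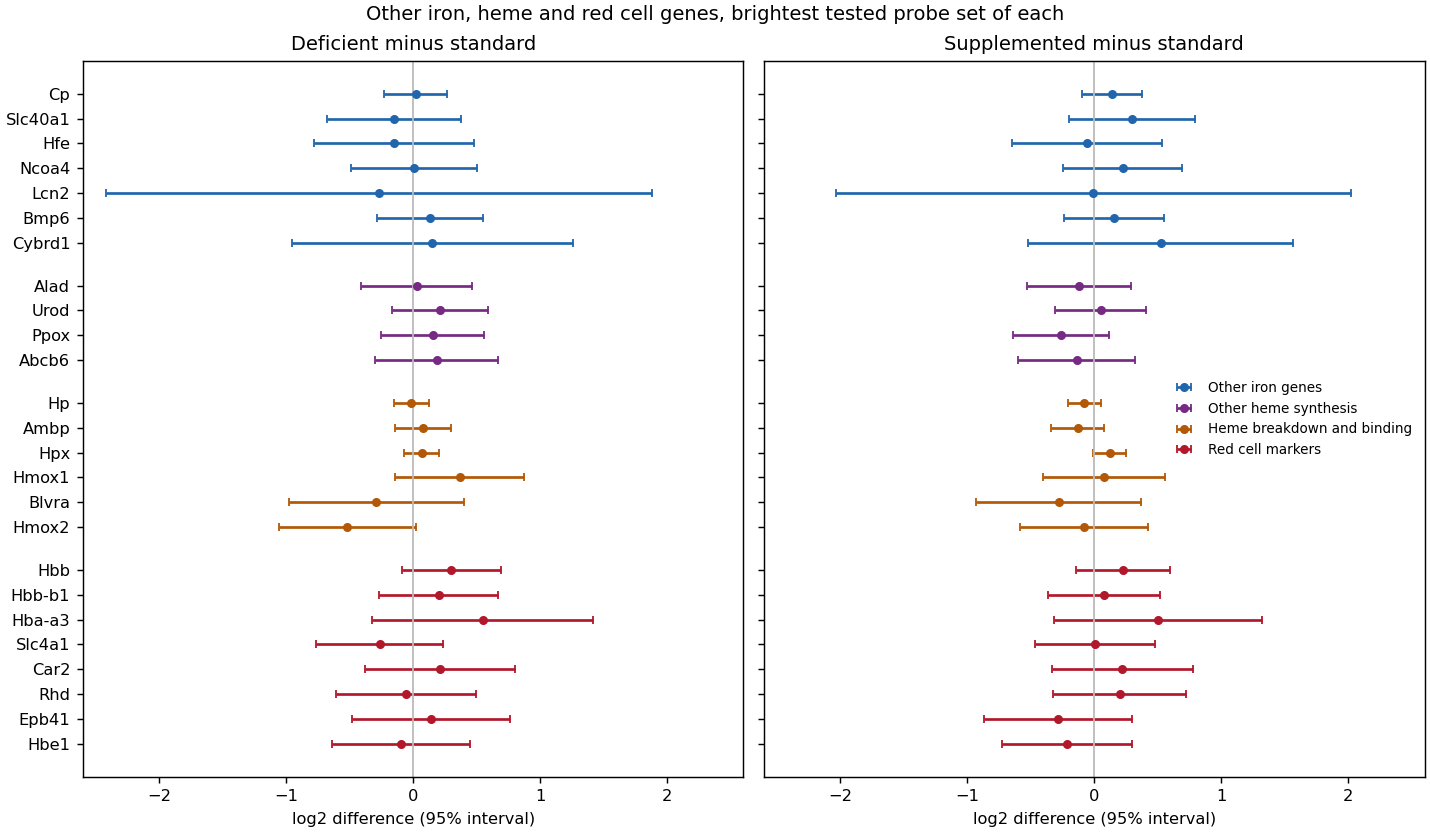
Log2 difference from the standard diet (x axis, with its 95% interval from limma) of other iron, heme synthesis, heme breakdown and red cell genes (y axis, each by its brightest tested probe set), for the deficient diet (left) and the supplemented diet (right), which share the 5 standard arrays. No gene was called; in the left panel the 4 heme synthesis genes lie between 0.026 and 0.21.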

How the data were processed

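RNA of 14 liver samples was measured on an Affymetrix rat array of 8799 probe sets. Per the labels' protocols, targets were made from some 5 µg of total RNA. The deposited table gives 1 intensity per probe set and array, linear and from 0.0104 to 16556 units. In the deposited table all arrays had a mean of about 150.3 units after 2% was trimmed at each end, so they carried a common scaling. No header or label used here names the software or gives detection calls, so a dim signal cannot be set against background. The number of arrays limits the precision.

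Array medians differed by up to 1.91 times. The 8740 probe sets other than controls were therefore quantile normalised on the log2 scale with limma 3.58.1 in R 4.3.3 and floored at the pooled 20th percentile (3.93 units). Probe sets with a mean above the pooled 40th percentile (14.3 units) were tested, 5133 in all. Diets were compared with lmFit and eBayes (trend) in 1 model of the 14 arrays, with Benjamini-Hochberg adjustment over all tested probe sets and a threshold of 0.05, two-sided. Fold changes on floored signals understate changes of dim probe sets. The procedure was tested on simulated data, and the outcome is not reported here.

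Symbols came from the platform annotation, in which 7006 probe sets had 1 symbol, 308 several and 1426 none. A gene was represented by its brightest tested probe set. Named were all member probe sets, up to 4 genes of each pathway list by F-test p, the red cell genes, and the 3 genes of highest Pearson's r with each tested member. Members and lists were chosen with earlier results of these data known. Promoter sequences are RefSeq's on GRCr8; 6 of 8 genes had an entry, and Fth1 and Ftl1 did not match.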

Additional observations from a re-analysis of the deposited data

Results flagged for a closer look

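Among 36 groups formed by 12 probe sets and 3 diets, 7 held an outlying array. Its gap to the nearest other array, relative to the whole range of its diet on the log2 scale, passed Dixon's 95% critical value. The units printed below are linear. Chance alone flags about 1 in 20 groups that are independent and normally distributed. These groups share the same 14 arrays, and 1 flagged value was set to the floor, so the 7 cannot be set against that rate. Supplemented array 5 was the lowest for Aco1, at 163 units against 337 to 442 on the other supplemented arrays, and the highest for the several-gene probe set rc_AI169802_at, at 2776 units against 2422 to 2496. Deficient array 14 was the lowest for Slc11a2 on AF008439_g_at, at 114 units against 164 to 170, and for the several-gene probe set rc_AI231807_at, at 4493 units against 4657 to 4686. Standard array 7 was the lowest for Alas2, at 81.9 units against 155 to 186. Supplemented array 2 was the highest for Alas1 on J03190_at, at 1073 units against 532 to 624. Standard array 6 was at the floor of 3.93 units for Slc11a2 on AF008439_at, against 7.45 to 9.49 on the other standard arrays.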

How the results depend on the processing

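No paired analysis was possible because the array numbers run on from diet to diet and no number is shared. The count of members called stayed at 0 in each comparison and in the F-test under all alternatives run, including each array left out. Arrays centred on their median moved the median of all probe sets to 0.17 for deficient minus supplemented and -0.11 for supplemented minus standard; the member median of the former was then 0.23. With array weights the member median for supplemented minus standard was 0.20. With 1 array left out the member median ran from -0.025 to 0.18 (deficient minus standard), -0.034 to 0.28 (supplemented minus standard) and -0.15 to 0.090 (deficient minus supplemented).

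None of the 9 member probe sets was called under any alternative run. The cause of the sign changes below was not tested. For supplemented minus standard, Slc11a2 was 0.075 on AF008439_g_at with the Gapdh 3'/5' ratio as a covariate, 0.15 as the mean of its tested probe sets, and -0.17 on AF008439_at with the floor at the 10th percentile. Alas1 on J03190_at was 0.010 with array weights and 0.017 with the Gapdh covariate. Aco1 was -0.088 with arrays centred on their median and -0.18 with the beta-actin covariate, with which Ireb2 was -0.28. For deficient minus standard, Aco1 was -0.025 with array weights and -0.083 without supplemented array 5, standard array 10 and deficient array 13, the 3 arrays chosen as standing apart. Supplemented array 5 had the lowest rank correlation with the other arrays. Standard array 10 and deficient array 13 had the highest Gapdh ratios (2.65 and 2.68) and beta-actin ratios (2.63 and 2.85). For deficient minus supplemented, Alas2 was -0.11 and -0.20, and Alas1 on J03190_g_at -0.13 and -0.10, with the Gapdh and beta-actin covariates. Slc11a2 on rc_AA892390_s_at was 0.027 with the Gapdh covariate. In that comparison values as deposited, array weights, the Gapdh covariate and leaving out the same 3 arrays gave -0.0060, -0.23, -0.037 and -0.25 for Aco1 and -0.16, -0.42, -0.076 and -0.37 for Ireb2.

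With 1 array left out, differences that changed sign had these ranges. Deficient minus standard ran from -0.070 to 0.15 for Aco1 and -0.10 to 0.34 for Ireb2. Supplemented minus standard ran from -0.082 to 0.28 for Aco1, -0.16 to 0.54 for Ireb2, -0.19 to 0.20 for Alas1 on J03190_at and -0.34 to 0.24 for Slc11a2 on AF008439_at. Deficient minus supplemented ran from -0.24 to 0.12 for Aco1, -0.41 to 0.29 for Ireb2 and -0.11 to 0.15 for Alas2. With the filter at the 60th percentile Ireb2 and Slc11a2 on rc_AA892390_s_at were not tested. The several-gene ferritin probe sets were not refitted. The dim Tfrc probe set limits what can be said of it.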
